A study of Mus musculus with 4 samples.

Results

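Heme, the iron porphyrin that carries oxygen in hemoglobin, is built by a short chain of enzymes, and 7 genes of that chain were followed here: Alas2, Alad, Uros, Urod, Cpox, Ppox and Fech, named in the order of the steps they catalyse. They are 7 of the 19938 genes that had at least 1 probe set listed to that gene alone, and each was read by 1 probe set. The step between Alad and Uros was not analysed here. Expression had been measured on 4 Affymetrix whole-transcript arrays, 2 for mice with the genotype Parp-2-/- and 2 for wild type (WT) mice, all on a C57BL/6 background. Parp2 encodes a poly(ADP-ribose) polymerase that is activated by DNA breaks. The RNA came from bone marrow cells sorted for Ter119, a red cell surface antigen, together with CD71, the transferrin receptor, a gate that takes erythroblasts, the nucleated precursors of red cells. The series concerns the need for Parp2 in red cell production. The labels give no age or sex of the mice and do not say whether an array holds RNA of 1 animal or of several.

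Each array title ends in the number 1 or 2, once in each genotype, and the arrays are called wild type replicates 1 and 2 and knockout replicates 1 and 2 after it. The labels do not say what it marks. The titles also begin with a number, 1 or 2 for wild type but 3 or 4 for the knockout, which is not explained either, and whatever it marks cannot be told apart from genotype. Values are the authors' log2 expression values. A probe set's value can be compared between arrays but not with the value of another probe set. The median over the 23410 annotated probe sets was between 5.23 and 5.49 on the 4 arrays, and the interquartile range was 1.98 on knockout replicate 2 and between 2.62 and 2.94 on the others. Parp2 itself (probe set 10414497) read 8.24 and 7.65 on wild type replicates 1 and 2 and 7.11 and 6.70 on knockout replicates 1 and 2, lower on both knockout arrays, as the labels call for; the limma adjusted p was 1.00, so it did not pass the test over all probe sets. Of the erythroblast markers listed, 8 of 11 were measured, among them Tfrc, the gene for CD71, at 10.35 to 11.43 and the anion exchanger gene Slc4a1 at 11.50 to 13.01, while the membrane skeleton gene Epb42 (9.06 to 11.43) and the erythropoietin receptor gene Epor (9.42 to 10.02) were also read.

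The pathway starts and ends in the mitochondrion. The erythroid isozyme of 5-aminolevulinate synthase, encoded by Alas2 on the X chromosome, joins glycine to succinyl-CoA in the rate-setting step, and its messenger is held back when iron is short through an iron-responsive element. Alad, Uros and Urod act in the cytosol, where aminolevulinate is condensed to a pyrrole, closed into a ring and trimmed of carboxyl groups. Cpox and Ppox are oxidases that act in the mitochondrion, and Fech, ferrochelatase, inserts the iron. Maturing erythroblasts induce these genes under GATA1 and its partners, and inherited loss of single steps gives sideroblastic anaemia or a porphyria.

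Because most of these genes moved together between the arrays, as described below, their promoters were read from RefSeq (build GRCm38.p6). Windows of the 250 bases before a start site were taken for 6 of the 7 genes, 8 windows in all since Alad and Uros have 2 start sites each; the window of Fech was not used here. They were searched on both strands for the GATA motif (AGATAA, also with T as its first letter or G as its last), a CACC motif (CCNCNCCC) and an NF-E2 motif (TGAGTCA). Shown are Alas2, Uros at its downstream start site and Cpox, the 3 genes with a GATA match, then Ppox, which had none although it varied almost as much as Alas2, and Alad at its upstream start site, the gene that did not follow the others. Sequences run 5′ to 3′ along the gene's strand and end at the base before the start site, and capitals mark GATA matches. The positions are chrX:150547167-150547416 (plus strand) for Alas2, chr7:133702501-133702750 (minus) for Uros, chr16:58669958-58670207 (plus) for Cpox, chr1:171281187-171281436 (minus) for Ppox and chr4:62520064-62520313 (minus) for Alad.
Alas2: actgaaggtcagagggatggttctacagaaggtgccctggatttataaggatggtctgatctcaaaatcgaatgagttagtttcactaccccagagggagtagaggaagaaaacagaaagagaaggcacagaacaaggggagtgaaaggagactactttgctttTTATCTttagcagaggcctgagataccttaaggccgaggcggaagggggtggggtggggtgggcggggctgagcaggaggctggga
Uros: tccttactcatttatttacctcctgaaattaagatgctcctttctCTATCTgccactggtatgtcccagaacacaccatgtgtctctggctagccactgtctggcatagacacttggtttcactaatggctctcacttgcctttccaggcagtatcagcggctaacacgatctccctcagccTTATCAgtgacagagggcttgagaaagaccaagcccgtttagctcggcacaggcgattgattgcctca
Cpox: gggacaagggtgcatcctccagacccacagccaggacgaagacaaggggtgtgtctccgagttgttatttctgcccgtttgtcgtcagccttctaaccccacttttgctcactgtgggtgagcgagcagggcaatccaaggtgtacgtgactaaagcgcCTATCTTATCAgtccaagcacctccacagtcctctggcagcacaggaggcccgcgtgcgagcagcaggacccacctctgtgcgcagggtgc
Ppox: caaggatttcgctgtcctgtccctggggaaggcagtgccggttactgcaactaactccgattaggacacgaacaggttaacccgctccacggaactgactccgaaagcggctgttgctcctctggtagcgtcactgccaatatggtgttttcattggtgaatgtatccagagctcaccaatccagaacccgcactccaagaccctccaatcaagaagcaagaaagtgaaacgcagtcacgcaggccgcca
Alad: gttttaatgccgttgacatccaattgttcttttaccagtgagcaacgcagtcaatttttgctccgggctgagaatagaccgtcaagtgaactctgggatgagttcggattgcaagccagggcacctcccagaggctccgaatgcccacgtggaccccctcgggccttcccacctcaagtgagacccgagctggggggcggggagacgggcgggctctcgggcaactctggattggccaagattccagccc

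All GATA matches in these windows lay on the opposite strand. In Alas2 the match (TTATCT as printed) ended 81 bases before the start site. Cpox had 2 matches that share a base, between 91 and 81 bases before the start. Uros had 2 at its downstream start site, 205 to 200 and 68 to 63 bases before it, and none at the upstream site. A GATA match was found in 3 of the 8 windows and in 26.6% of 32817 RefSeq windows of the same length. The CACC motif was found in 4 of the 8, from 3 genes, and in 45.9% of all windows. The Alas2 window and the downstream Alad window held 4 matches each, some of them overlapping. The 2 Alad windows share bases, and the matches of the upstream window are counted again in the downstream one. The NF-E2 motif was in 0 of the 8 and in 4.46% of all. A match is a string of letters and does not show that a factor was bound.

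Knockout and wild type erythroblasts were then compared. No enzyme gene passed the test: limma called 0 of the 7 at an adjusted p under 0.05, 0 of them had an unadjusted p under 0.05, and all 7 had overlapping groups. Over all probe sets limma called 0 of 23410 (0%), 486 (2.08%) had an unadjusted p under 0.05, and 25% had groups that did not overlap. With the title number as a block limma called 274 (1.17%), none of them an enzyme, so the count of 0 depends on the model. In that fit limma gave Parp2 and all 7 enzymes the same SE (0.41). A gene's own spread therefore did not enter there, and such calls follow the size of the difference. By group means the knockout was higher for 5 of the 7 genes and lower for 2, and it was higher for 56.4% of all probe sets. The median difference was +0.20 on the log2 scale over the 7 genes and +0.06 over all probe sets. In RNA from a sorted population, fewer cells expressing a gene and less of its RNA per cell cannot be told apart.

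Alas2 (probe set 10602372) read 10.18 and 12.09 on wild type replicates 1 and 2, and 11.13 and 12.24 on knockout replicates 1 and 2. The knockout values lay above the wild type value of the same number each time, but by less than the gap between the wild type arrays. By genotype means Alas2 differed by +0.55 ± 0.69 (SE, n = 2 per group), 1.46-fold, with a limma 95% interval from -1.10 to +2.20. That interval reaches from less than the wild type level to several times it.

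Among the cytosolic steps, Alad (10513608), the dehydratase that makes porphobilinogen, read 10.85 and 11.10 in wild type and 10.91 and 10.68 in the knockout. It was the steadiest of the 7 genes, all 4 values lying within 0.43, and knockout replicate 2 was the lowest. Uros (10568638), the synthase that closes the ring and whose loss causes congenital erythropoietic porphyria, read 8.19 and 8.99 in wild type and 8.91 and 9.23 in the knockout. Wild type replicate 1 was low, and the other 3 arrays lay together. Urod (10515385), the decarboxylase that follows, read 9.74 and 10.73 in wild type and 10.37 and 10.49 in the knockout, both knockout values falling between the wild type ones. The differences were -0.18 ± 0.36 for Alad (95% interval -1.04 to +0.68), +0.48 ± 0.42 for Uros (-0.52 to +1.48) and +0.20 ± 0.44 for Urod (-0.85 to +1.25).

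Of the mitochondrial steps, Cpox (10436392), coproporphyrinogen oxidase, read 10.80 and 11.47 in wild type and 11.20 and 11.38 in the knockout. The knockout values again lay inside the wild type range. Ppox (10360090), protoporphyrinogen oxidase, read 9.09 and 10.92 in wild type and 9.37 and 10.51 in the knockout, so that it split by title number in each genotype and hardly by genotype. Fech (10459391), whose loss causes erythropoietic protoporphyria, read 9.34 and 10.66 in wild type and 10.15 and 10.43 in the knockout. The differences were +0.15 ± 0.40 for Cpox (95% interval -0.79 to +1.09), -0.06 ± 0.68 for Ppox (-1.69 to +1.57) and +0.29 ± 0.51 for Fech (-0.92 to +1.50). The limma adjusted p was 1.00 for each of the 7 genes. An interval this wide does not show that the genotypes were alike.

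**Figure D1:**
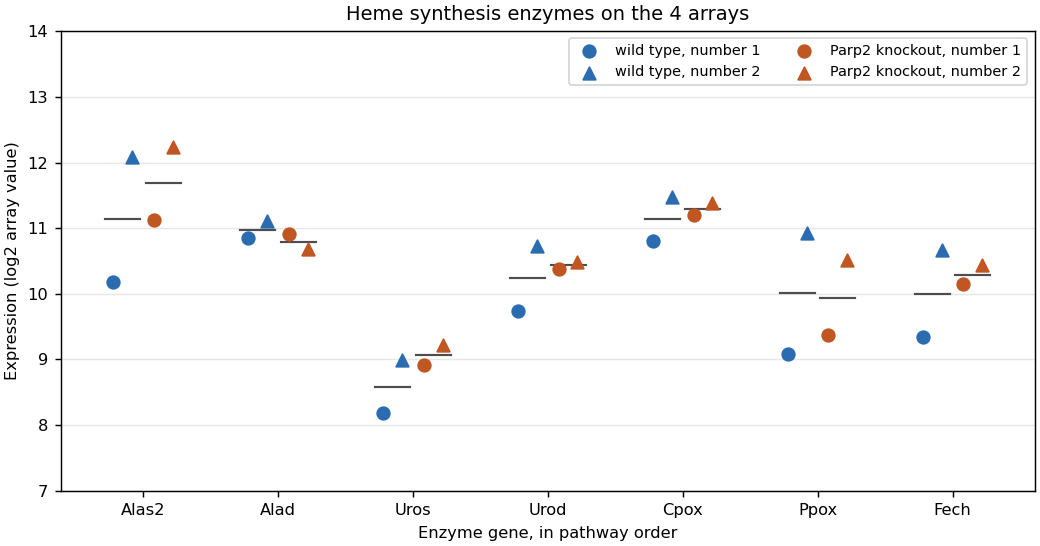
Log2 array value (vertical axis) of each enzyme gene in pathway order, with wild type in blue, knockout in orange, title number 1 as circles, title number 2 as triangles and a grey line at each genotype's mean of 2 arrays. Wild type replicate 1 is the lowest point for every gene but Alad, and the genotypes overlap for all 7 genes.

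Within the title numbers the genotypes compared differently. Among arrays numbered 1, all 7 genes were higher in the knockout, by +0.95 for Alas2, +0.81 for Fech, +0.73 for Uros, +0.63 for Urod, +0.40 for Cpox, +0.29 for Ppox and +0.06 for Alad, while 49.9% of all probe sets were higher there. Among arrays numbered 2, Uros (+0.24) and Alas2 (+0.15) were higher, and Alad (-0.43), Ppox (-0.41), Urod (-0.24), Fech (-0.23) and Cpox (-0.10) were lower, while 56.4% of all probe sets were higher. Thus 5 of the 7 genes had a higher knockout value in number 1 and a lower one in number 2, as did 22.4% of all probe sets. Each of these values sets 1 array against 1 and has no test.

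The signs within number 2 depended on the scaling. With arrays centred on their medians 6 of the 7 were lower there, Alas2 included at -0.01, and after repeated quantile normalisation only Alad (-0.10) and Ppox (-0.11) were. Within number 1 all 7 were higher under the 3 scalings compared.

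**Figure D2:**
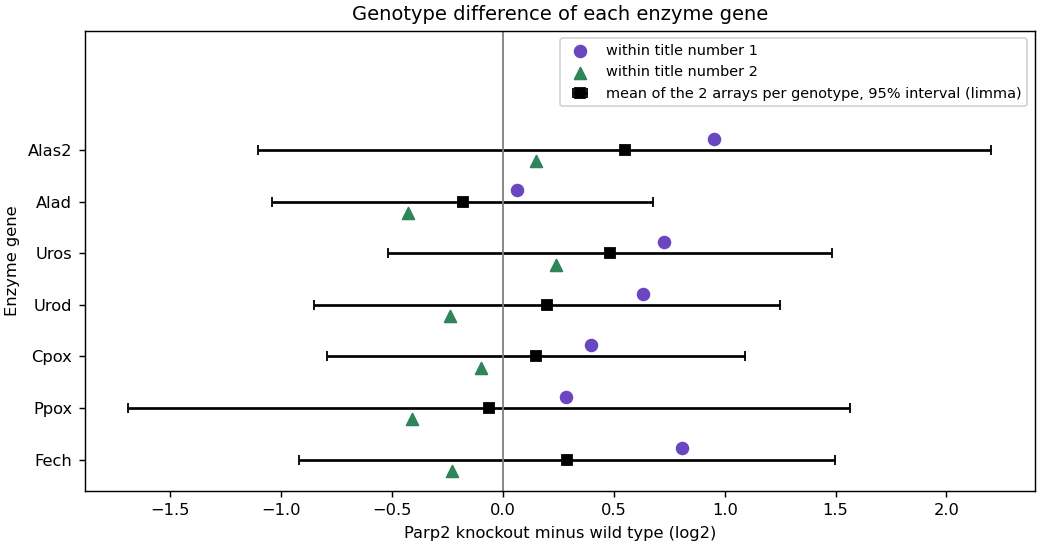
Knockout minus wild type on the log2 scale (horizontal axis) for each enzyme gene. Black squares are the differences of the genotype means with 95% limma intervals, all of which cross 0; purple circles are differences within title number 1, all above 0, and green triangles those within title number 2, above 0 for Alas2 and Uros only.

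Single arrays decided the sign for most of the genes. Without wild type replicate 1 the difference was -0.41 for Alas2, -0.37 for Fech, -0.30 for Urod and -0.19 for Cpox, and the median over the 7 genes was -0.31. Without wild type replicate 2 that median was +0.86 and Ppox was at +0.86. Without knockout replicate 1 the median was +0.43 and Ppox was at +0.51, and without knockout replicate 2 the median was +0.06 and Alas2 was at -0.005. With 1 array left out Uros ranged from +0.08 to +0.88 and Alad from -0.31 to -0.05, keeping their signs but not their sizes. Leaving out 1 array leaves the title numbers unbalanced between the genotypes, so these values also carry the difference by number.

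The larger contrast in the data of these genes ran between the title numbers. Both arrays numbered 2 lay above both numbered 1 for 6 of the 7 genes, Alad being the exception, and this held for 26.2% of all probe sets. In wild type, replicate 2 exceeded replicate 1 by 1.91 for Alas2 (3.76-fold), 1.84 for Ppox (3.58-fold), 1.33 for Fech, 0.99 for Urod, 0.80 for Uros, 0.67 for Cpox and 0.26 for Alad. In the knockout it did so by 1.11 for Alas2 (2.16-fold), 1.14 for Ppox (2.21-fold), 0.31 for Uros, 0.29 for Fech, 0.18 for Cpox and 0.12 for Urod, whereas Alad was 0.23 lower. The erythroid first enzyme and the penultimate one thus had the widest gaps in each genotype.

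The wild type gap was wider than the knockout gap for all 7 genes, as for 35% of all probe sets, and for all 7 it exceeded the genotype difference, as for 60.2%. Wild type replicate 1 had the lowest value for 6 of the 7 genes, as for 25.9% of all probe sets. Replicate 2 lay above replicate 1 in wild type for all 7 genes under each of the 3 scalings. In the knockout the order was less firm: with arrays centred on their medians, both arrays numbered 2 lay above both numbered 1 only for Alas2, Ppox and Fech, and after repeated quantile normalisation they did so for all 7. Knockout replicate 2 is the array with the narrow interquartile range. By mean level the 7 genes lay between percentiles 90.8 and 98.1 of the annotated probe sets. The shares given for all probe sets are not matched for level. The part of the narrow range in the enzyme values was not tested.

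Genes of red cell maturation had a like course over the arrays. Of 10 late erythroblast genes measured, 9 had both arrays numbered 2 above both numbered 1, under each of the 3 scalings. Over all probe sets the share was 16.2% to 26.2% under these scalings. Examples are Xpo7, an exportin needed for nuclear maturation, at 6.93 and 12.05 in wild type and 10.45 and 11.72 in the knockout, and the survival gene Bcl2l1 at 6.17 and 10.25 in wild type and 8.82 and 10.23 in the knockout. Bpgm, the red cell enzyme that makes 2,3-bisphosphoglycerate, read 9.11 and 11.60 in wild type and 10.48 and 11.75 in the knockout. Wild type replicate 1 was the lowest array for each of these 3 genes, as it was for 6 of the heme enzymes. The median deviation of the late erythroblast list from each gene's own mean was -1.14 on wild type replicate 1, +0.75 on wild type replicate 2, -0.20 on knockout replicate 1 and +0.75 on knockout replicate 2. For the heme enzymes it was -0.64, +0.40, 0.00 and +0.29 in the same order.

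As a list, early erythroid and progenitor genes ran the other way on wild type replicate 1. Their median deviations were +0.50 and +0.21 on the wild type and -0.32 and -0.55 on the knockout arrays. Of the list, 8 of 10 genes were measured, and not all ran that way. Cd34, Gata2 and Meis1, 3 of the 8, had both arrays numbered 2 above both numbered 1, as had 26.2% of all probe sets. Cd34 was lowest on wild type replicate 1 (4.00 against 4.39 to 5.95). Kit, the stem cell factor receptor, read 8.09 on wild type replicate 1 and between 5.73 and 5.98 on the other arrays, and Myb, a transcription factor of progenitors, read 9.03 there against 7.44 to 8.45. Kit, Myb, the cyclin gene Ccnd2 and Runx1, 4 of the 8, were lower on both knockout arrays than on both wild type arrays, as were 9.42% of all probe sets. Cdk6, a cell cycle kinase, differed by -1.45 with overlap. The part of cell maturity in the values of the enzyme genes was not tested.

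Markers of most other blood cells had lower knockout values, though none passed the adjusted test. Over all probe sets, 43.6% were lower by group mean and 9.42% were lower without overlap, the shares against which the following counts stand. All 12 neutrophil markers were lower, 10 of them without overlap, and the mean level of the list was 11.01 and 10.28 on the wild type and 9.62 and 9.06 on the knockout arrays. Among these were the chitinase-like gene Chil3 (-1.96), the granule genes Ltf (-1.35), Camp (-1.07), Mpo (-1.64) and Ngp (-0.88), and Ly6g (-1.74), Itgam (-1.57) and Cebpe (-0.94). Of 9 B cell markers 8 were measured and 7 were lower, 6 without overlap, with mean levels of 6.77 and 7.37 in wild type and 5.62 and 5.99 in the knockout. Those without overlap were the pre-B cell receptor genes Vpreb1 (-2.90) and Igll1 (-1.40), Ms4a1 (-2.00), the transcription factor gene Ebf1 (-1.70) and the receptor genes Cd79b (-1.03) and Cd79a (-0.70).

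Among monocyte and macrophage markers 8 of 9 were lower, 4 without overlap (mean level 7.37 and 7.83 against 6.58 and 7.20): Adgre1 (-1.12), Lyz2 (-0.97), Cd68 (-1.02) and Csf1r (-0.65). Among mast cell, basophil and eosinophil markers 6 of 8 were lower, 3 without overlap (6.25 and 5.59 against 5.17 and 5.16), with the proteases Mcpt8 (-2.24) and Prss34 (-1.58) and the granule gene Prg2 (-1.54) of lowest p. All 7 T and NK cell markers measured were lower, 3 without overlap (5.33 and 5.82 against 4.59 and 5.19), namely Nkg7 (-1.63), Cd3g (-0.92) and Gzma (-0.77). Of these, Cd3g (3.58 to 4.84) and Gzma (3.85 to 5.37) read near or below the array medians of 5.23 to 5.49, and Nkg7 read 7.02 to 9.55. Megakaryocyte markers did not follow the genotype: 4 of the 5 measured had both arrays numbered 2 above both numbered 1, as had 26.2% of all probe sets. Their mean levels overlapped (5.42 and 6.69 against 5.97 and 6.85), and Pf4 (+1.14), Ppbp (+0.96) and Gp9 (-0.62) went both ways. The counts of lower markers were the same under the 3 scalings, except that 7 of the 8 mast cell, basophil and eosinophil markers were lower after either rescaling. Their part in the enzyme values was not tested.

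**Figure D3:**
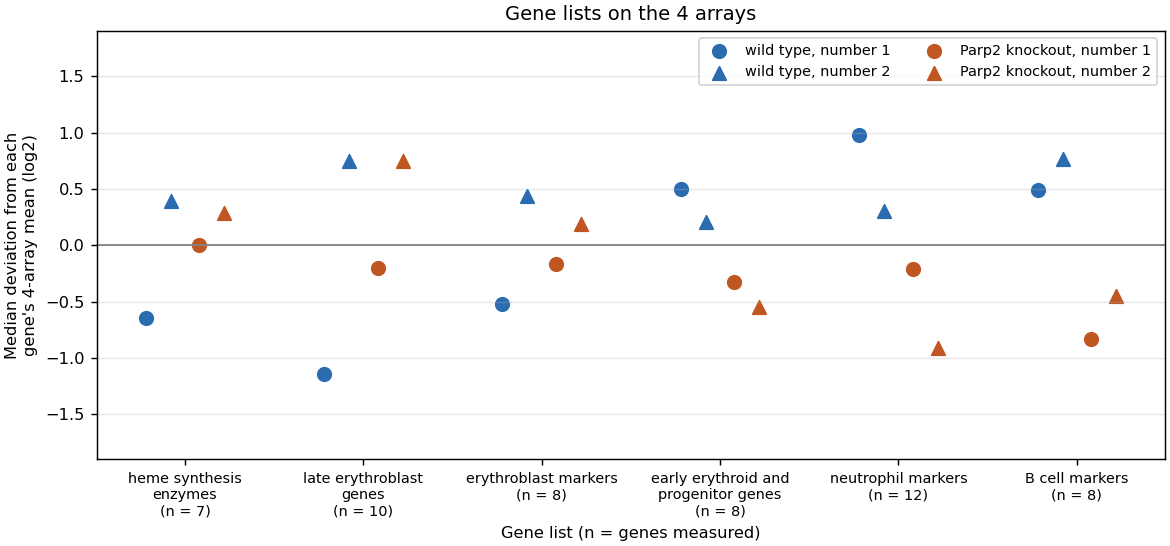
Median deviation of a list's genes from their own 4-array means (vertical axis, log2) on each array, for 6 gene lists, with colours for genotype and shapes for title number as in the plot of single enzymes. Heme enzymes and late erythroblast genes are lowest on wild type replicate 1 (-0.64 and -1.14), where early erythroid genes are at +0.50, and neutrophil and B cell markers are higher on both wild type arrays.

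The genes around the pathway were examined from lists of 44 further genes, 42 of them measured; limma called 0 of the 42 at an adjusted p under 0.05, and 1 had an unadjusted p under 0.05, as had 2.08% of all probe sets. That gene was Alas1, the housekeeping isozyme of the first step, which Alas2 takes over in erythroblasts. Alas1 read 8.33 and 7.16 in wild type and 6.90 and 6.03 in the knockout. The genotypes did not overlap, and the knockout differed from wild type by -1.28 ± 0.53 (SE, n = 2 per group; limma unadjusted p = 0.0465, adjusted p = 1.00). It was lower within number 1 (-1.43) and within number 2 (-1.13), and without overlap under the 3 scalings. Alas1 was highest on wild type replicate 1, the array on which Alas2 was lowest. In each genotype the array numbered 2 was lower for Alas1 and higher for Alas2. The median deviation of the neutrophil list fell in the same array order as Alas1. It was +0.98 and +0.30 on the wild type and -0.21 and -0.91 on the knockout arrays. That of the early erythroid list fell so too. The B cell list (+0.77) and the monocyte and macrophage list (+0.66) were highest on wild type replicate 2. The part of other cell types in the Alas1 values was not tested.

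The list of mitochondrial supply and assembly holds genes that carry substrates and iron to the enzymes or build iron-sulphur clusters. Alas1 is also counted in it. The list had a median of -0.02, with 6 of 16 measured higher and 10 lower. After repeated quantile normalisation 9 were higher and the median was +0.14, so this list had no settled direction. Slc25a37, mitoferrin-1, which imports the iron that Fech uses, read 10.10 and 12.08 in wild type and 10.97 and 12.09 in the knockout, almost the course of Alas2. Slc25a38, the glycine carrier of heme synthesis, read 9.25 and 10.00 in wild type and 9.13 and 9.36 in the knockout. The outer mitochondrial membrane protein gene Tspo and its erythroid paralogue Tspo2 differed by -0.67 and -0.54, Tspo without overlap (9.83 and 10.09 against 9.12 and 9.45). Tmem14c, a transporter of porphyrin intermediates, went against the enzymes by number, at 12.05 and 11.60 in wild type and 12.02 and 11.09 in the knockout. Of the 16, arrays numbered 2 lay above those numbered 1 for 5 genes and below for 5. Over the 23410 probe sets they lay above for 6131 (26.2%) and below for 5186.

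Heme breakdown and transport had a median of +0.12 over 8 genes. Flvcr2 (+0.27), Blvrb (-0.22) and Abcg2 (+0.24) had the lowest p, and Hmox1, the heme oxygenase that heme induces, read 8.67 and 10.18 in wild type and 8.50 and 10.55 in the knockout, splitting by number. Iron supply and sensing had a median of -0.30, with 7 of 10 lower. There Fbxl5, the iron-sensing ubiquitin ligase subunit, was at -0.54, the iron exporter Slc40a1 at -0.44 and Ireb2, an iron regulatory protein that binds the element in the Alas2 messenger, at -0.43, and within number 2 all 10 were lower while 7 were higher within number 1. After repeated quantile normalisation only 4 of the 10 were lower within number 2, and the median was -0.11. The ferritin genes Fth1 (0.00) and Ftl1 (-0.02) hardly differed.

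Regulators of heme genes had a median of -0.08 over 8 genes, which became +0.07 after repeated quantile normalisation. Gata1 read 9.84 and 9.61 in wild type and 9.52 and 9.67 in the knockout, without the low value that wild type replicate 1 had for most enzymes. Klf1, the activator that binds CACC motifs, was not low there either, at 9.52 and 9.57 in wild type and 9.93 and 9.32 in the knockout. Of the 8 genes, 3 were lowest on wild type replicate 1, as were 25.9% of all probe sets. They were Tal1 (8.81 against 9.21 to 9.48), Nfe2 (9.12 against 9.65 to 10.23) and Eif2ak1. Eif2ak1, the heme-regulated kinase that slows globin translation when heme is short, did follow the enzymes, at 9.53 and 10.91 in wild type and 10.32 and 10.72 in the knockout. Its difference of +0.30, like those of Tal1 (+0.27) and Zfpm1 (-0.20), was within its error.

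**Figure D4:**
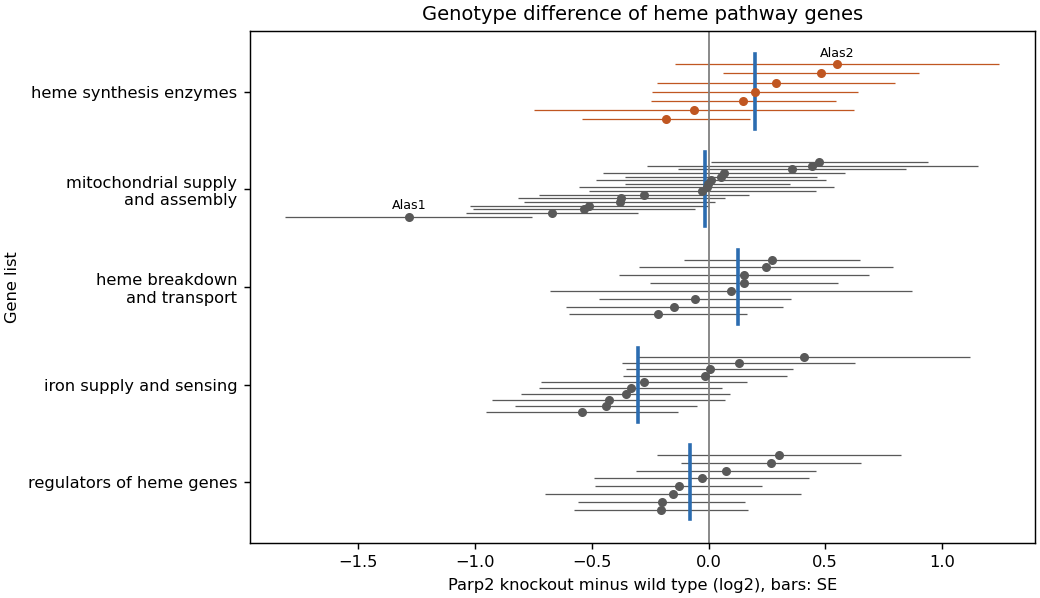
Knockout minus wild type (horizontal axis, log2) for each measured gene of the 5 pathway lists, with bars for the SE of the limma fit and a blue line at each list's median. Medians lie at +0.20 for the enzymes, -0.02, +0.12, -0.30 and -0.08 for the other lists from top to bottom, and Alas1 at -1.28 is the point farthest from 0.

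The profile of each gene over the 4 arrays, taken as deviations from its own mean, was used to find the genes most like the enzymes. Among the 7, Fech lay nearest to the mean profile of the enzymes, with a root mean square difference of 0.10 on the log2 scale, and Alad (0.43) and Alas2 (0.41) lay farthest. The mean profile includes all 7, and the measure also counts how widely a gene varied. Values ranged over 2.06 for Alas2, 1.11 for the mean profile and only 0.43 for Alad. Relative to Alas2, Ppox was the nearest enzyme (0.31) and Alad the farthest (0.84). Over all 19938 genes the 5 nearest to Alas2 were the cell adhesion gene Cadm3 (0.05), the potassium channel gene Kcnk7 (0.05), mitoferrin-1 gene Slc25a37 (0.06), 1700102P08Rik (0.06) and Mxd3 (0.07), a repressor of the MYC network. The 5 nearest to the mean of the enzymes were 4833422C13Rik (0.02), the Mediator subunit gene Med12 (0.03), Tnrc6b (0.03), which serves microRNA silencing, the lysosomal transporter gene Abcb9 (0.03) and C530005A16Rik (0.04). Some of these genes were dim: 4833422C13Rik (3.82 to 4.98) and C530005A16Rik (3.42 to 4.58) read below the median on every array. These likenesses rest on 4 arrays and are given without a test.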

How the data were processed

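The authors deposited log2 expression values for 35511 probe sets on 4 arrays, made from 100 ng of total RNA per sample per the labels' protocols; RMA, limma and R 3.0.2 stand in the submitters' processing notes without roles. Platform annotation gave 21789 probe sets 1 symbol, 1621 several and 12101 none. Where a gene had several probe sets, that with the highest mean was used. The 23410 annotated probe sets were fitted with limma 3.58.1 (R 4.3.3), knockout against wild type, with Benjamini-Hochberg adjustment. The fit had 2 residual and 4.77 prior degrees of freedom. A run on simulated data, which held no difference by title number, checked only that mean estimates came near the change put in. It was no check of error rates. An exact two-sided permutation test of 2 arrays against 2 cannot go below 0.333. Whether the arrays of a genotype hold RNA of separate animals is unstated, and the p-values then reflect the spread among these arrays alone, possibly technical. RMA compresses differences of very bright and dim probe sets. The genes, lists and tests were chosen with earlier results of these data known. Named are the 7 enzymes, up to 3 genes of lowest p per list, genes without overlap that differed by at least 0.58, genes that a count or description needed (such as Runx1, after its values were seen) and the nearest profiles. Alternatives were the number as a block, leaving out arrays, other scalings, filters, moderation, weights and thresholds. The number of arrays limits precision.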

Additional observations from a re-analysis of the deposited data

Results flagged for a closer look

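For 5 enzymes the genotype difference had opposite signs within the title numbers. Knockout minus wild type on the log2 scale was +0.064 in number 1 and -0.43 in number 2 for Alad, +0.63 and -0.24 for Urod, +0.40 and -0.10 for Cpox, +0.29 and -0.41 for Ppox, and +0.81 and -0.23 for Fech. Of all probe sets, 22.4% were likewise higher in number 1 and lower in number 2. With arrays centred on their medians this held for 6 of the 7 enzymes and 27.5% of all probe sets. After repeated quantile normalisation it held for only 2 enzymes, Alad and Ppox, and 23.1%. The change of sign was not tested, since each number holds 1 array per genotype.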

How the results depend on the processing

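The count of enzymes past the test was 0 under every alternative run, including an unadjusted p under 0.05. The count over all probe sets (0) was 486 at an unadjusted p under 0.05, 8 with trended and robust moderation and 0 to 62 with 1 array left out, where a lone array is assumed to vary like the others. With the replicate block the count was 274, with 1 residual degree of freedom and the same SE (0.41) for each enzyme. Over all probe sets the gap between numbers 2 and 1 in wild type and in the knockout correlated at 0.468. No label says that the number pairs arrays. The median over the enzymes (+0.20) was -0.31 to +0.86 with 1 array left out and 0.12 to 0.34 otherwise. With 1 array left out the difference ranged from -0.41 to +1.50 for Alas2, -0.31 to -0.05 for Alad, +0.08 to +0.88 for Uros, -0.30 to +0.69 for Urod, -0.19 to +0.48 for Cpox, -0.98 to +0.86 for Ppox and -0.37 to +0.95 for Fech. Ppox was at +0.086 after repeated quantile normalisation; the cause was not tested. Each enzyme had 1 probe set, so averaging probe sets changed no value.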
